A study of Mus musculus with 16 samples.

Results

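Foxp3, the gene of a forkhead transcription factor, was followed over 16 Illumina bead arrays of control tissue and of the B16 tumor site. It was taken by its symbol in the platform annotation, which named 2 probes for it among the 14121 probes tested, and it was 1 of 9450 genes tested. Both probes were kept apart, and Cd3e, one of the CD3 chains through which the T cell receptor signals, was set beside them as a T cell reference with 2 probes of its own. Foxp3 was selected on its measured differences between the groups, which were positive with one probe and negative with the other. The values of its probes by group are therefore given as a description without a test.

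The series asks how transcripts at the tumor site change with time after inoculation of B16, a pigmented melanoma line derived from C57BL/6 mice. All samples came from C57BL/6 mice of 8 weeks. The 7 control arrays held control tissue, 4 arrays held tumor microenvironment at day 4 after inoculation, and 5 arrays held tumor microenvironment at day 14. The labels do not say which tissue served as control, at which site the cells were injected, or whether each replicate number was a separate mouse, so errors and p-values cover the spread between samples, which may be partly technical.

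Foxp3 is the defining transcription factor of regulatory T cells, the CD4+ T cells that restrain other lymphocytes. In mice, loss of the gene causes the fatal autoimmune disease of the scurfy strain, and depletion of cells that express it slows the growth of several transplanted tumors. The protein binds DNA through its forkhead domain and works in complexes with partners such as NFAT proteins and Runx1, and cells that express it usually carry high Il2ra, Ctla4, Ikzf2 (the factor Helios) and Tnfrsf18 (the receptor GITR). Expression outside T cells has also been described, in some epithelial and tumor cells. In tissue RNA, fewer cells of a type and less RNA per cell cannot be told apart.

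Levels are normalized log2 signals, and a probe was called detected on an array where its detection p-value was under 0.05, which means that its signal stood above the background signals of that array. Each array detected between 15555 and 21669 probes. On array 4 of day 4 and arrays 2 and 5 of day 14, 3 tumor arrays, no more than 22 of 81 genes of epidermis, muscle, fat, fibroblasts, endothelium and macrophages were detected, against at least 78 on each of the other 13. These arrays had correlations of at least 0.960 with each other and of at most 0.779 with any other array. Of 13 tested T cell genes 1 was detected on each of them, against 11 to 13 on the others, while 13 of 14 melanocyte genes were detected on each. Group differences that move with these arrays are given with and without them.

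The brighter Foxp3 probe, ILMN_1251126, was detected on all 16 arrays. Its control levels had a lowest value of 9.12, a median of 9.31 and a highest of 9.85. The 4 day 4 arrays read 9.96, 9.08, 9.38 and 10.03. At day 14 the arrays read 9.17, 9.90, 10.07, 9.55 and 10.20. The ranges of the 3 groups overlapped, and each tumor group held arrays inside the control range as well as arrays above it.

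Group means of this probe were 9.39 ± 0.24 in controls (SD, n = 7), 9.61 ± 0.46 at day 4 (SD, n = 4) and 9.78 ± 0.42 at day 14 (SD, n = 5). Day 4 exceeded control by 0.22 on the log2 scale, or 1.17-fold, with a 95% confidence interval of -0.30 to 0.74. At day 14 the difference from control was 0.38, or 1.31-fold, with an interval of -0.10 to 0.87. Between the tumor days the difference was 0.16 (standard error 0.261). All these differences are smaller than the SD of 0.46 within day 4.

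The 3 tumor arrays with few tissue genes read 9.90, 10.03 and 10.20 on the brighter probe, above every control. Cd3e was not detected on any of the 3. Among the other 6 tumor arrays the probe spanned 9.08 to 10.07, and 2 of these, day 4 array 1 at 9.96 and day 14 array 3 at 10.07, also exceeded every control. Without the 3 arrays the differences from control were 0.08 at day 4 and 0.20 at day 14.

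The dimmer Foxp3 probe, ILMN_2635132, was detected on 11 of 16 arrays, which were 6 of 7 controls, 3 of 4 day 4 arrays and 2 of 5 day 14 arrays. Control levels had a lowest value of 4.69, on control 1 where the probe was not detected, a median of 5.90 and a highest of 6.17. Day 4 arrays read 6.01, 5.85, 5.61 and 4.87, the last not detected. Day 14 arrays read 6.10, 4.85, 5.14, 5.10 and 4.87. At day 14 the probe was detected on array 1 at 6.10, near the highest control, and on array 3 at 5.14, where the detection p-value of 0.047 lay just within the limit. Array 4 at 5.10 lay just outside it, with a detection p-value of 0.0534. Array 1 lay within the range of the detected controls, 5.49 to 6.17, and array 3 below it. The readings of arrays that did not detect the probe have no order among them.

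The day 4 mean of the dimmer probe was 5.59 ± 0.50 (SD, n = 4) against 5.72 ± 0.51 in controls (SD, n = 7), a difference of -0.13 with a 95% confidence interval of -0.81 to 0.55. At day 14 the mean was 5.21 ± 0.51 (SD, n = 5), and the difference from control of -0.50 had an interval of -1.14 to 0.13. Day 14 differed from day 4 by -0.37 (standard error 0.341). Where the probe was not detected its reading gives only an upper bound. On the 3 arrays with few tissue genes the probe was not detected and read 4.85 to 4.87. Without them the difference from control was 0.11 at day 4 and -0.27 at day 14, so the day 4 sign turned.

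**Figure D1:**
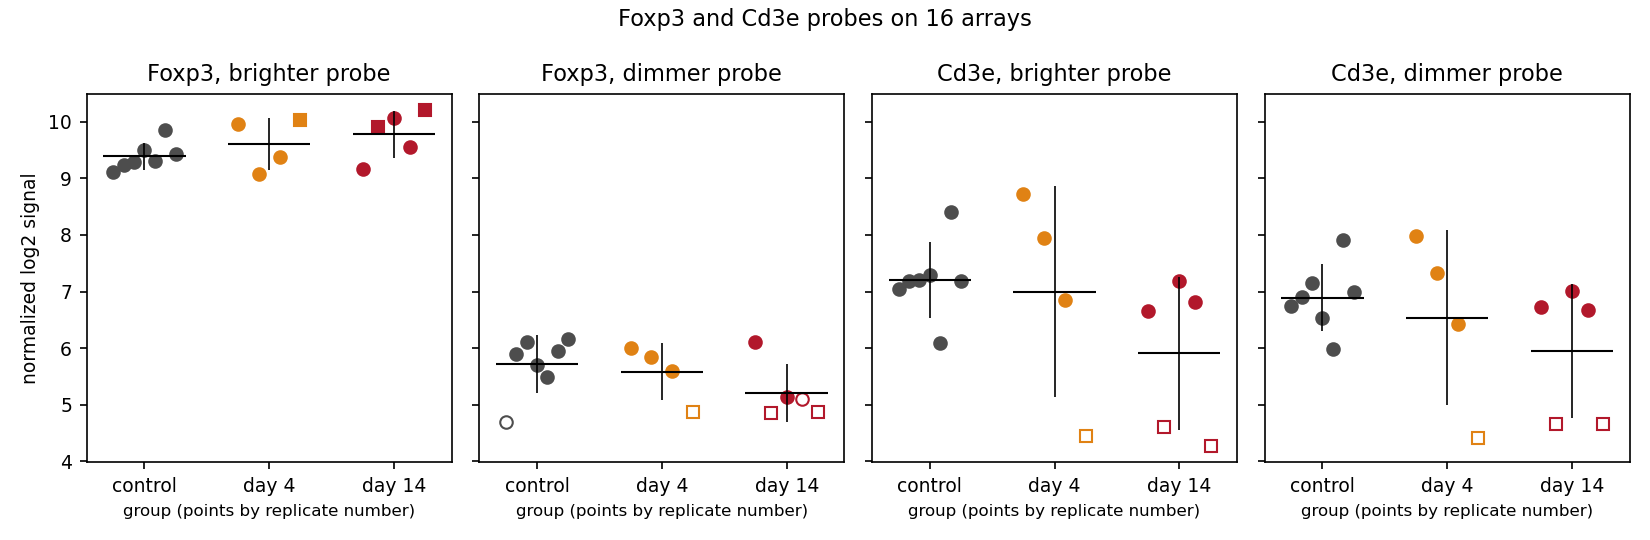
Normalized log2 level (vertical axis) of both Foxp3 probes and of Cd3e on each array, by group (horizontal axis). Open symbols mark arrays where the probe was not detected, squares mark the 3 tumor arrays with few tissue genes, lines are group means and whiskers 1 SD. The squares are at 9.90 to 10.20 on the brighter Foxp3 probe and at 4.85 to 4.87 on the dimmer one.

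Cd3e, the T cell reference, was undetected on the same 3 arrays. Its brighter probe, ILMN_1238847, had control levels from 6.09 to 8.41 with a median of 7.19. It read 8.72, 7.95, 6.85 and 4.45 on the day 4 arrays, and 6.65, 4.61, 7.18, 6.82 and 4.28 on the day 14 arrays. The values under 5 belong to the 3 arrays with few tissue genes, the only arrays on which Cd3e was not detected.

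No difference of Cd3e passed the limma test over all probes. Day 14 differed from control by -1.29 (standard error 0.682, adjusted p = 0.280) and day 4 by -0.21 (standard error 0.730, adjusted p = 0.908). Without the 3 arrays the day 14 difference was -0.32 and the day 4 difference turned to 0.64. The other Cd3e probe gave -0.35 at day 4 and -0.94 at day 14, the same signs as the first. Between the tumor days the first probe had -1.09 (standard error 0.781, adjusted p = 1.00).

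Over all 16 arrays the direction of the Foxp3 difference from control thus depended on the probe. At both tumor days the brighter probe had a positive value and the dimmer one a negative value. Without the 3 arrays with few tissue genes both were positive at day 4 (0.08 and 0.11). At day 14 the signs still differed (0.20 and -0.27). Over all 16 arrays the estimates of the 2 probes at day 14 lay 0.888 apart on the log2 scale. Opposite signs were also found among other genes. Of 6510 pairs of tested probes for the same gene, from 3288 genes, 20.8% had them at day 4 and 19.5% at day 14. A larger distance at day 14 than that of Foxp3 was found in 8.76% of the pairs. Among the 458 pairs whose dimmer probe was at or below the level of the dimmer Foxp3 probe, that share was 17.5%. Foxp3 was selected on these differences, so its place among the pairs is a description and not a test.

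**Figure D2:**
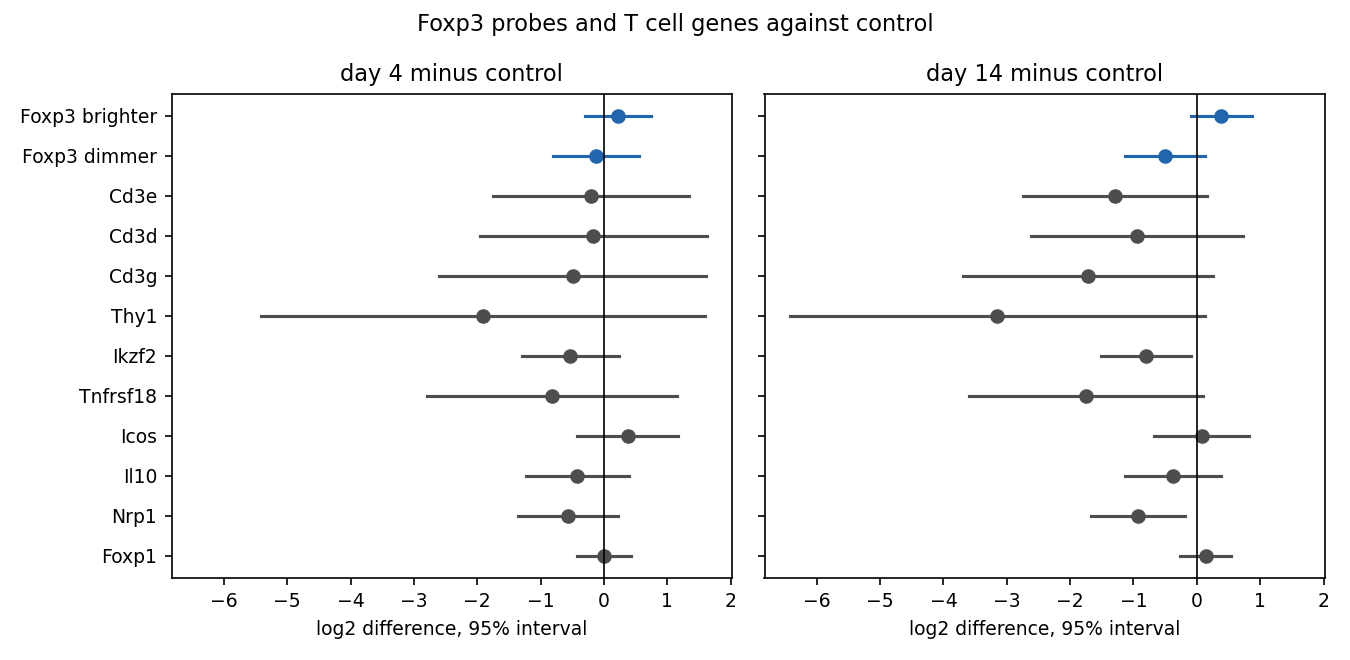
Log2 difference (horizontal axis) of day 4 and day 14 from control for both Foxp3 probes, Cd3e, named T cell and regulatory T cell genes and Foxp1, with 95% confidence intervals. The brighter Foxp3 probe has 0.22 and 0.38 against control, and the dimmer one -0.13 and -0.50.

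Over the 13 arrays that hold tissue genes the Foxp3 probes did not move together. Their levels had a Pearson correlation of -0.03 and a Spearman correlation of -0.04. Leaving out day 14 array 3 and day 4 array 1, the arrays farthest from the median of the brighter probe, gave 0.13. After the mean of each group was subtracted the correlation was 0.03, and within the 7 controls it was 0.49, or -0.04 without controls 6 and 1. The relation within controls therefore rested on those arrays. The dimmer probe was not detected on control 1 and day 14 array 4. Its readings there, 4.69 and 5.10, are upper bounds, but they entered every correlation of the probe that includes these arrays as values.

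The probes of other genes mostly did follow each other on the same arrays. The 2 Cd3e probes correlated at 0.94, and the median over the 6510 pairs was 0.65. A correlation below that of the Foxp3 probes was found in 12.7% of pairs. Among the 458 pairs whose dimmer probe was at or below the level of the dimmer Foxp3 probe, the median was 0.48 and 16.6% lay below Foxp3. Pairs of probes are not independent of each other, since they share the arrays.

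**Figure D3:**
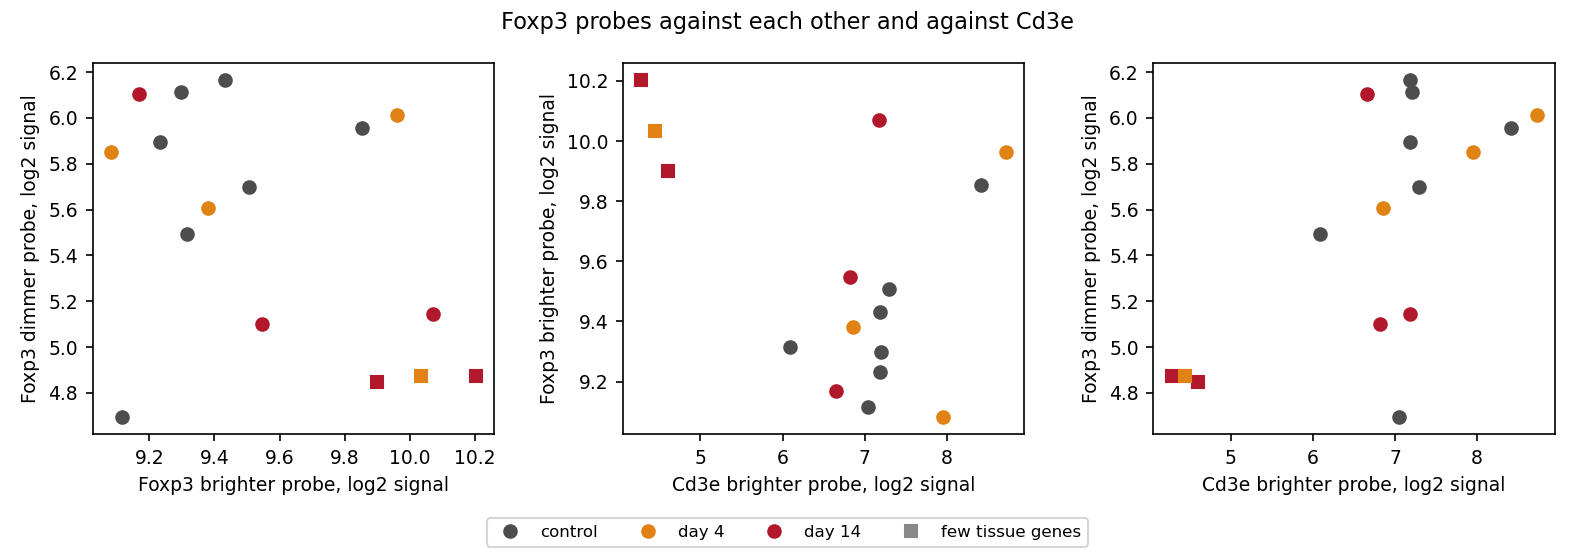
Levels of the Foxp3 probes on each array, against each other and against the brighter Cd3e probe (both axes in normalized log2 signal, groups by colour). Over the 13 arrays with tissue genes the Foxp3 probes correlate at -0.03. With Cd3e the brighter Foxp3 probe has 0.48 and the dimmer one 0.35.

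**Figure D4:**
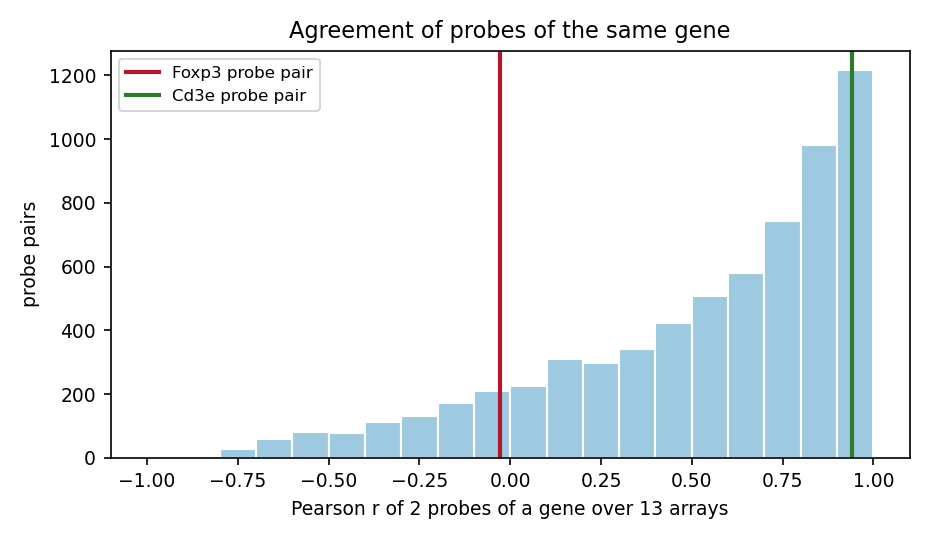
Number of probe pairs (vertical axis) by Pearson correlation over 13 arrays (horizontal axis) for 6510 pairs of probes of the same gene. Lines mark the Foxp3 pair at -0.03 and the Cd3e pair at 0.94. The median of all pairs is 0.65.

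Which transcripts the probes are complementary to could not be read from the sources used here, where probe sequences are not given. In RefSeq (assembly GRCm38.p6) Foxp3 lies on the X chromosome with 3 transcripts and 2 transcription starts. The gene Flicr, a long noncoding RNA, overlaps its start, and Ccdc22, a component of an endosomal sorting complex, overlaps its end. Of the 3 genes on either side, Ppp1r3f and Syp were tested. Ppp1r3f, a regulatory subunit of protein phosphatase 1, had differences of 0.58 at day 4 and 0.55 at day 14 (standard errors 0.367 and 0.343, adjusted p = 0.760 and 0.319), or 0.36 and 0.13 without the 3 arrays with few tissue genes. Syp, the synaptic vesicle protein synaptophysin, had -0.14 and -0.40 (standard errors 0.253 and 0.236, adjusted p = 0.814 and 0.305), or 0.0072 and -0.25 without them. Neither passed the test.

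Whether either Foxp3 probe followed T cell transcripts was asked over the 13 arrays, by 6 relations of the probes with Cd3e and with the means of 2 gene lists, in a family of 7 with that between the probes. All p-values are from two-sided permutation tests with 100000 permutations, adjusted by Benjamini-Hochberg over the family. The first list holds T cell receptor and signaling genes, 13 of whose 25 members were tested. The second holds genes that regulatory T cells are known to express, with 14 of 30 tested and Foxp3 left out. Its members Nrp1, Itgae, Capg and Tgfb1 were detected on all 16 arrays, also on the 3 with few tissue genes. The mean of this list is therefore not particular to T cells.

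With Cd3e, the brighter probe had a Pearson correlation of 0.48 (adjusted permutation p = 0.164) and a Spearman correlation of 0.24 (adjusted permutation p = 0.612). Without day 4 array 1 and control 6, which had the highest Cd3e of the 13, the correlation was -0.05. It was 0.61 with group means subtracted. Within the controls it was 0.72 (exact permutation adjusted p = 0.464), and 0.87 without controls 6 and 5. The value over the 13 arrays thus rested on day 4 array 1 and control 6, while that within the controls did not fall without its farthest arrays. The mean of the T cell list gave 0.13 (adjusted permutation p = 0.784).

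Against the mean of the regulatory T cell list the brighter probe ran the other way, with a Pearson correlation of -0.61 (permutation p = 0.0239, adjusted 0.164) and a Spearman correlation of -0.64 (permutation p = 0.0215, adjusted 0.0751). It failed the correction. The correlation was -0.63 without controls 2 and 3, -0.59 with group means subtracted and -0.36 within the controls. The highest level of the brighter probe among these arrays, on day 14 array 3, stood beside a list mean of 7.55, and control 2, with the highest list mean at 8.14, had one of its lower levels at 9.23.

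The dimmer probe had positive values with all 3 measures, with control 1 and day 14 array 4, where it was not detected, included. Its correlation was 0.35 with Cd3e (adjusted permutation p = 0.348), 0.54 with the T cell list (adjusted permutation p = 0.164) and 0.50 with the regulatory T cell list (adjusted permutation p = 0.164). The corresponding Spearman correlations were 0.42, 0.66 and 0.55, with adjusted permutation p-values of 0.279, 0.0751 and 0.129. None passed. Within the controls the Pearson values were 0.33, 0.43 and 0.43. The difference between the probes in their relation with a list was not tested.

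Relations with 9 lists of other cell types and of Foxp3 partners were computed for both probes, a family of 18 that was added after the first values had been seen. All 6 lists of tissue cells had negative correlations with the brighter probe. The brighter probe was lower where muscle genes were higher, with a Pearson correlation of -0.91 (permutation p = 5.0e-05, adjusted 0.0009) and a Spearman correlation of -0.82 (adjusted permutation p = 0.0171). The 3 arrays of the 13 with its highest levels, control 6 at 9.85, day 4 array 1 at 9.96 and day 14 array 3 at 10.07, had mean muscle levels of 10.29, 9.77 and 9.38. The other 10 arrays had mean muscle levels of 11.22 to 13.59. The correlation was -0.79 without day 14 array 3 and day 4 array 1, -0.92 with group means subtracted, and -0.82 in the controls (exact permutation adjusted p = 0.171).

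Adipocyte genes (-0.90, adjusted permutation p = 0.00135), fibroblast and matrix genes (-0.90, adjusted permutation p = 0.00222) and epidermal genes (-0.83, adjusted permutation p = 0.00454) had the same direction. So did macrophage genes at -0.75 (adjusted permutation p = 0.0111) and endothelial genes at -0.69 (adjusted permutation p = 0.0263). The macrophage relation failed without day 14 array 3 (-0.64), and the endothelial one without control 6 (-0.64) or day 4 array 1 (-0.63). The epidermal correlation was -0.52 without day 14 array 3 and day 4 array 1. In the controls it was -0.61, or 0.23 without controls 1 and 6. Melanocyte and pigmentation genes, which B16 cells also express, had a positive value of 0.63 (adjusted permutation p = 0.0403). That call was lost when any 1 of controls 1, 3, 4, 6 or 7, day 4 arrays 1 or 2, or day 14 array 3 was left out, with values between 0.58 and 0.64. With both control 1 and day 14 array 4 left out the melanocyte correlation was 0.78.

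Within the 7 controls the brighter probe had correlations of -0.93 with the fibroblast list, -0.85 with the adipocyte list and 0.74 with the melanocyte list, and no adjusted p passed (exact permutation adjusted p = 0.143, 0.189 and 0.243). Without control 6 and the next farthest control these became -0.52 for the fibroblast list and 0.09 for the adipocyte list, so the latter rested on those arrays. The melanocyte value was 0.93 without controls 1 and 3. The list means come from the same arrays and vary with each other, so the relations are not separate observations. The part of tissue composition in the level of the probe was not tested.

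For the dimmer probe no tissue list passed, with correlations of -0.03 with muscle, 0.02 with adipocyte, -0.04 with epidermal, -0.18 with fibroblast, 0.18 with endothelial and 0.30 with macrophage genes (adjusted permutation p from 0.432 to 0.951). Of its 9 relations, that with 4 NK and cytotoxic genes passed (0.68, adjusted permutation p = 0.0263). It was 0.73 without control 6 and day 4 array 1, 0.67 with group means subtracted and 0.65 in the controls. It failed without control 1 (0.61), where the probe was not detected. The melanocyte list gave 0.54 (adjusted permutation p = 0.113), which became -0.28 without control 1 and day 14 array 4, where the probe was not detected.

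**Figure D5:**
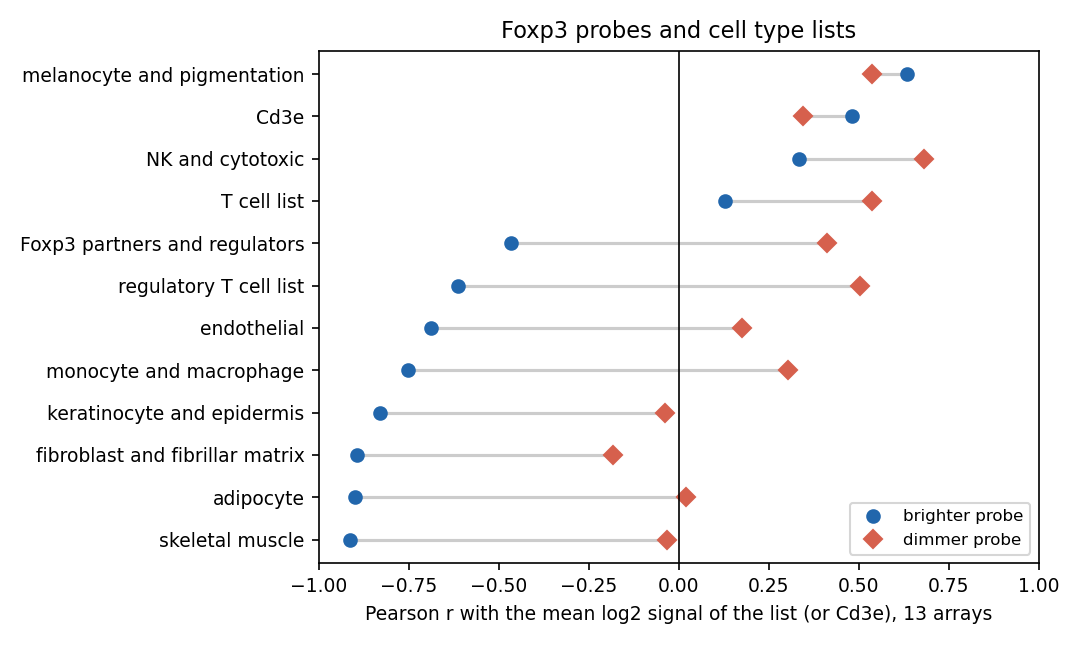
Pearson correlation over 13 arrays (horizontal axis) of each Foxp3 probe with Cd3e and with the mean of each gene list. The brighter probe lies at -0.91 with muscle and -0.61 with regulatory T cell genes, and the dimmer one at -0.03 and 0.50.

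The genes most like each probe were taken as the 5 with the highest Pearson correlation over the 13 arrays, among all tested genes, which makes their correlations a description. For the brighter probe these were Pebp1 (0.98), the histone H2ax (0.96), Eva1a (0.96), Mfsd13a (0.96) and Hdhd5 (0.96). All 5 were detected on all 16 arrays. Pebp1, an inhibitor of Raf kinase signaling, read 9.67 to 10.72 on the 3 arrays with few tissue genes and 7.90 to 9.86 on the others, and Hdhd5 read 9.31 to 9.82 against 7.68 to 8.90. The ranges of the other genes overlapped more, with H2ax at 10.16 to 10.68 against 9.12 to 10.83, Eva1a at 6.80 to 7.96 against 6.30 to 8.56, and Mfsd13a at 8.70 to 10.35 against 6.73 to 10.28. None of these genes is on the T cell or regulatory T cell list, which hold only 13 and 14 of the 9450 tested genes.

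The genes most like the dimmer probe were Clec9a (0.94), Zcchc18 (0.87), Klre1 (0.87), Ubn2 (0.87) and Gm2a (0.86). Clec9a, a receptor of the dendritic cells that take up dead cells, was detected on all 13 arrays with tissue genes and on none of the other 3, where it read 4.39 to 4.59. Klre1, a receptor of NK cells, was detected on 10 arrays. The 2 sets of 5 genes have no gene in common. With 9450 genes tested, sets this small say little by their lack of overlap.

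T cell receptor and signaling genes were not called at either day. Over all genes 0 of 9450 were called in each of the 3 comparisons (0%) by limma, where a call needed a change of 2-fold or more beside an adjusted p below 0.05. At an unadjusted p under 0.05, 0.37% of genes were higher and 0.243% lower at day 4, and 6.04% were higher and 11.9% lower at day 14. Between the tumor days the shares were 0.19% higher and 0.37% lower. Of the 13 T cell genes, 0 reached that unadjusted level at day 4, and 4 did so downward at day 14. Their median difference was -0.24 at day 4 and -1.12 at day 14, against 0.05 and 0.04 over all genes. Without the 3 arrays with few tissue genes, the median was 0.30 at day 4 and -0.26 at day 14, and 0 of 13 reached the unadjusted level at either day. The shares over all genes were then 0.106% higher and 0.0212% lower at day 4, and 0.868% higher and 1.14% lower at day 14. Between the tumor days without the 3 arrays the T cell median was -0.34. There 1 of the 13 was lower at the unadjusted level, as were 0.688% of all genes.

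Cd3d and Cd3g, which form the receptor complex with Cd3e, differed from control at day 14 by -0.94 (standard error 0.787) and -1.72 (standard error 0.926), and Thy1, a surface protein of T cells that fibroblasts also carry, by -3.15 (standard error 1.54). Without the 3 arrays with few tissue genes the values were 0.30, -0.10 and -0.27. Bcl11b, a factor that keeps T cell identity, had the lowest p of the list at day 14, with -2.63 (standard error 1.09, adjusted p = 0.273), or -0.86 without those arrays. The lowest p at day 4 belonged to Trat1, an adaptor of the receptor, at -0.77 (standard error 0.511, adjusted p = 0.760), or -0.37 without them. Between the days it was that of Cd2, an adhesion receptor, at -0.91 (standard error 0.611, adjusted p = 1.00).

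Genes known to accompany Foxp3 in regulatory T cells had no calls either. Of the 14 tested, 0 reached an unadjusted p under 0.05 at day 4, and 4 were lower at that level at day 14, when 11.9% of all genes were. The median difference was -0.46 at day 4, with 1 of 14 above 0, and -0.59 at day 14, with 2 of 14 above 0. Between the tumor days it was -0.28, and no member reached the unadjusted level. Without the 3 arrays the median was -0.10 at day 4, with 5 of 14 above 0, and -0.08 at day 14, with 7 of 14 above 0, and 0 of 14 reached the unadjusted level at either day.

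Ikzf2 differed from control by -0.53 at day 4 and -0.80 at day 14 (standard errors 0.360 and 0.337, adjusted p = 0.760 and 0.273). Tnfrsf18 had -0.82 and -1.75 (standard errors 0.927 and 0.866). It was not detected on any of the 3 arrays with few tissue genes, and without them its differences were 0.21 and -0.22, while those of Ikzf2 were -0.61 and -0.83. Icos, a costimulatory receptor, had 0.37 and 0.08 (standard errors 0.377 and 0.352), or 0.33 and 0.47 without the 3 arrays. The cytokine Il10 had -0.42 and -0.38 (standard errors 0.381 and 0.356), or -0.10 and 0.10 without them. Nrp1, a semaphorin receptor that vessels also express, had the lowest p of the list at both days, at -0.57 and -0.93 (standard errors 0.373 and 0.349, adjusted p = 0.760 and 0.273), or -0.23 and -0.34 without the 3 arrays. Itgae, an integrin chain of tissue lymphocytes, had the lowest between the days at -0.64 (standard error 0.674, adjusted p = 1.00). Cd4, Cd8a, Lck, Il2ra, Ctla4, Tnfrsf4 and Ccr8 had no named probe in the annotation used. That annotation gave 1 symbol to 14124 of the 42831 probes with signals. Probes for these genes may therefore be on the array without a name here, and the tested members of each list are those it names.

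Partners and regulators of Foxp3, 21 of 32 tested, had medians of -0.10 at day 4, -0.03 at day 14 and -0.24 between the days, with 0 called. At an unadjusted p under 0.05, 0 of them stood out at day 4, 2 were higher and 4 lower at day 14, and 2 were higher between the days. Over all genes 6.04% were higher and 11.9% lower at day 14, and 0.19% were higher between the days. Without the 3 arrays the medians were 0.02, -0.20 and -0.15, and 1 member was higher at day 14, when 0.868% of all genes were. The members with the lowest p were Satb1, a chromatin organizer that Foxp3 represses in mice, at day 4 (-1.91, standard error 1.14, adjusted p = 0.760, and -0.74 without the 3 arrays), Foxo3, a forkhead factor that acts on the gene, at day 14 (1.09, standard error 0.344, adjusted p = 0.273) and the acetyltransferase Kat5 between the days (0.51, standard error 0.215, adjusted p = 1.00). Of the other genes of the FOXP family, Foxp1 was tested. It was detected on all arrays with differences of -0.0014 at day 4 and 0.14 at day 14 (standard errors 0.203 and 0.190), or 0.02 and 0.29 without the 3 arrays, while its other probe gave -0.85 and -0.45.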

How the data were processed

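Total RNA was labelled as biotinylated cRNA, per the labels' protocols, and 16 arrays were analysed. The deposited signals are linear intensity values, 1 per probe and array. From data line 23 on, each detection p-value deposited is printed 2441 lines under its signal, and this shift was removed before use (Spearman correlation of p and signal -0.993 to -0.970 afterwards, with 0 reversals). A value table of 16247 probes deposited on the log2 scale, with no account of its making in the sources used here, served as an alternative and ranks probes as the signals do. Its array medians were 8.51 to 8.57. Slides and scan dates are not given in the sources used here, so no such block was fitted.

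Signals were background-corrected, offset by 16 and quantile normalized (neqc, limma version 3.58.1, R version 4.3.3). Of 42831 probes with signals, 14124 had 1 symbol in the platform annotation. The 14121 of these that were detected (p below 0.05) on 4 or more arrays were kept. One limma model held the 3 groups over all 16 arrays, with Benjamini-Hochberg adjustment over the probes within each comparison. Calls required an adjusted p below 0.05 with a change of 2-fold or more, and the probe with the highest mean stood for its gene in lists. An array with under 50% of the tissue genes detected was kept out of the correlations. Permutations were run with SciPy 1.17.1. The number of arrays limits the precision. The model and the correlations were tested on simulated data.

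The gene, the gene lists and the tests were chosen with earlier results of these data known. The genes named were those of a written rule: both Foxp3 probes, Cd3e and listed T cell, regulatory T cell and FOXP genes, the 3 genes on either side, the 5 genes most like each probe, and the member with the lowest p in each list and comparison. Alternatives were the value table, no background correction, median scaling, an offset of 50, array weights, other detection filters, a replicate block, and leaving out arrays. Samples with the same replicate number did not regularly share their deviations from the group means (correlation -0.789 to 0.455 over 13 pairs). The lowest value was that of day 4 array 4, which has few tissue genes, with day 14 array 4. Such arrays shape the deviations in their groups, so whether the samples were paired cannot be told from this.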

Additional observations from a re-analysis of the deposited data

Results flagged for a closer look

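Among 42 sets of levels, each of 1 named probe in 1 group of 4 to 7 arrays, 5 held an array far from the rest of its group, and chance gives about 5% of such sets. For the dimmer Foxp3 probe it was day 14 array 1, which read 6.10 where the next highest day 14 array read 5.14. That array had 13 of 13 T cell genes and 14 of 14 regulatory T cell genes detected. So did day 14 array 3, the one that read 5.14. Cd3d read 8.95 on control 6, with the next control at 7.53, and the brighter Foxp3 probe also had its highest control level there, at 9.85.

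The other sets involve the tumor arrays with few tissue genes. On day 4 array 4, Thy1 read 4.54 against at least 11.7 on the other day 4 arrays, and Nrp1 read 9.44 against at least 10.68. Day 14 array 5 gave the lowest Syp level of its group, 5.61, with the next at 6.16. The brighter Foxp3 probe read 10.03 and 10.20 on these arrays, the highest level of each group.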

How the results depend on the processing

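Over 24 alternatives, the day 14 difference from control kept its sign with both Foxp3 probes, between 0.16 and 0.54 with the brighter probe and between -0.73 and -0.15 with the dimmer one. The day 4 difference of the brighter probe ran from 0.03 to 0.40. That of the dimmer probe ran from -0.30 to 0.11 and was above 0 without day 4 array 4. Between the days the brighter probe had -0.05 to 0.32. The replicate number as a block gave 0.38 and 0.49 from control at day 4 and day 14 for the brighter probe, -0.05 and -0.37 for the dimmer one, and changed no call. No gene of any list was called under any alternative.

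Cd3e at day 4 turned positive with the value table (0.020), without background correction (0.032), without the 3 arrays with few tissue genes (0.64) and without control 1 as well (0.62), and ranged from -0.78 to 0.64 when single arrays were left out. Among the correlations of the brighter probe, that with the T cell list was -0.037 with the value table, -0.030 without background correction, -0.58 over all 16 arrays and -0.074 to 0.27 without single arrays. With the regulatory T cell list it passed at -0.75 both with the value table (adjusted permutation p = 0.0232) and without background correction (adjusted permutation p = 0.0229). With Cd3e it was 0.69 under median scaling, which passed (adjusted permutation p = 0.0453), and -0.38 over all 16 arrays. The probes correlated with each other at 0.031 under median scaling and at -0.33 to 0.23 without single arrays. The dimmer probe with the regulatory T cell list passed under median scaling (0.67, adjusted permutation p = 0.0453).

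Median scaling also ended the calls of the brighter probe with endothelial (-0.38) and macrophage genes (-0.38) and of the dimmer probe with NK genes (0.60). It turned the sign for the brighter probe with Foxp3 partners (0.39) and for the dimmer probe with fibroblast (0.028), epidermal (0.094) and muscle genes (0.14). Without single arrays the ranges that crossed 0 were -0.57 to 0.087 for the brighter probe with partners, and for the dimmer probe -0.13 to 0.17 with adipocyte, -0.37 to 0.025 with fibroblast, -0.35 to 0.26 with epidermal and -0.30 to 0.22 with muscle genes. The dimmer probe with melanocyte genes passed without day 14 array 3 (0.69). The cause of these changes was not tested. The 4 to 7 arrays per group, and the background for the dimmer probe, limit the precision.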

Other observations

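Cd8b1, the beta chain of the CD8 coreceptor, was the one T cell list gene detected on the 3 tumor arrays with few tissue genes, and it was named after its values had been seen. It was detected on 16 of 16 arrays, as the brighter Foxp3 probe was, with a mean level of 10.93.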
